A study of Mus musculus with 4 samples.

Results

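Endothelial cells were taken from single-cell RNA sequencing of the hippocampus, comparing Dp(10)2Yey with WT. The RNA of a droplet shares a barcode, and unique molecular identifiers (UMIs) count each captured RNA molecule once. A barcode was kept as an endothelial cell when it held at least 200 genes, at least 5 UMIs summed over Cldn5, Flt1, Ly6c1, Slco1a4 and Itm2a, at most 2 UMIs summed over P2ry12, Cx3cr1, Mog, Pdgfra and Gja1, and under 20% of its UMIs from the globin genes Hba-a1, Hba-a2, Hbb-bs and Hbb-bt. The cells were thus chosen by the UMIs of these genes. The second set of genes marks microglia, oligodendrocytes, oligodendrocyte precursors and astrocytes. This rule found 235 endothelial cells among 6464 barcodes, with 49 and 73 in WT and 46 and 67 in Dp(10)2Yey, listed here and below with replicate 1 before replicate 2. Each genotype was represented by 2 male mice aged 3 months on a C57BL/6J background, with 1 library per mouse. Dp(10)2Yey mice are hemizygous for a germline duplication of the stretch of mouse chromosome 10 that corresponds to part of human chromosome 21, so that all their cell types, and not the endothelium alone, carry 3 copies of its genes. WT littermates carry 2 copies.

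Endothelial cells line every blood vessel, and in the brain they form the blood-brain barrier. Their tight junctions close the path between cells, efflux pumps return drugs and lipids to the blood, and dedicated carriers bring glucose, amino acids, lactate, thyroid hormone and iron into the tissue. This state is kept by Wnt and beta-catenin signals from the surrounding brain and by pericytes, the mural cells that sit on the capillary wall inside the same basement membrane, and it changes along the vascular tree from arteries through capillaries to veins.

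The genes of the rule chose the cells, so their levels are a description. Levels are given as CPM, the UMIs of a gene over all UMIs of the endothelial cells of a library, scaled to a common total, and because a molecule is counted once whatever its length, they were not divided by gene length. Cldn5, the main claudin of brain tight junctions, had 6559.7 and 6865 CPM in WT and 6249.7 and 6184 CPM in Dp(10)2Yey. Flt1, a receptor for vascular endothelial growth factors, had 3606 and 3975 CPM in WT and 3329 and 3471 CPM in Dp(10)2Yey, and the organic anion carrier Slco1a4 had 1462 and 2220.0 CPM in WT and 1514 and 1839.6 CPM in Dp(10)2Yey. Each of these values was over 1000 CPM, and the other barcodes that passed the filters on genes and globin had means of 27.6, 27.0 and 8.68 CPM. The membrane proteins Ly6c1 and Itm2a had mean levels of 3449.6 and 4175 CPM. All 5 genes were detected in 177 of the endothelial cells and at least 4 in 213. The marker sum of a cell had a median of 44 UMIs and ran from 5 to 462. Just inside the threshold, 4 barcodes had a sum of 5 and 5 had a sum of 6, with median totals of 1198.5 and 1149 UMIs. Just outside it, 8 barcodes had a sum of 4 and 7 had a sum of 3, with median totals of 856 and 1156 UMIs. A marker sum of at least 5 was reached by 262 barcodes, of which 18 had too many UMIs of the other cell types and 11 too much globin, some of them both.

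Markers that the rule did not use were present as well. Of 19 further endothelial markers, all 19 had UMIs in the endothelial cells, and their summed level was 14203 and 15236 CPM in WT and 13424 and 14566 CPM in Dp(10)2Yey, beside a mean of 247 CPM in the other barcodes. The adhesion molecules Pecam1 and Cdh5 hold endothelial cells together. Pecam1 was detected in 61.7% of the endothelial cells and 6.27% of the microglia, which had median depths of 2091 and 4115 UMIs. Cdh5 was detected in 61.7% of the endothelial cells and 0.243% of the microglia. After every barcode was thinned to 1000 UMIs, which left 168 of the 235 endothelial cells, Pecam1 was detected in 38.1% and Cdh5 in 38.7% of them, against 1.60% and 0.100% of the microglia. The shallower cell type thus had the larger share for both genes.

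The endothelial cells held 171654 and 292796 UMIs in WT and 149288 and 245167 UMIs in Dp(10)2Yey, with medians of 1791, 2078, 2414 and 2135 UMIs per cell. Cells ranged from 501 to 22191 UMIs. No cell barcode of these cells recurred in another library, although 8 barcode sequences did so among all 6464. Libraries stood apart in blood-cell RNA. Globin genes took 2.30% and 0.521% of the endothelial UMIs in WT and 0.00737% and 0.381% in Dp(10)2Yey. Of the 11 endothelial cells with at least 2% globin UMIs, 8 were in WT replicate 1. The neutrophil genes S100a8 and S100a9 were found in 2 endothelial cells, 1 of each genotype and both from replicate 1, which together held every UMI of both genes. A doublet caller marked 4 of the 235 cells.

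The genes that set the endothelial cells apart most were ranked by the ratio of their mean level in these cells to that in the other barcodes, with 10 CPM added to both, among genes with a UMI in at least 25% of the cells. As the ratio compares the chosen cells with the rest, no test was made. Besides the genes of the rule, the highest were Ly6a with a ratio of 105, the secreted insulin-like growth factor binding protein Igfbp7 with 75.4, the pericyte marker Rgs5 with 72.6 and the efflux pump Abcb1a (P-glycoprotein) with 64.3. The 20 leading genes also included the endothelial phosphatase Ptprb, the peptidoglycan recognition protein Pglyrp1, the vascular matrix protein Egfl7, the chemokine Cxcl12, the adhesion receptors Adgrl4 and Adgrf5, Ctla2a, the carbonic anhydrase Car4, the proteoglycan Spock2, the transcription factor Foxq1 and the small heat shock protein Hspb1. Rgs5 differed from the other 19 in that it was detected in only 46.4% of the cells, where the next lowest, Foxq1 and Car4, were found in 55.7% and 57.9%. Ly6a and Ly6c1 belong to a family of similar genes, and Abcb1a has a close relative in Abcb1b, so UMIs that could be shared between such copies make these levels uncertain.

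**Figure D1:**
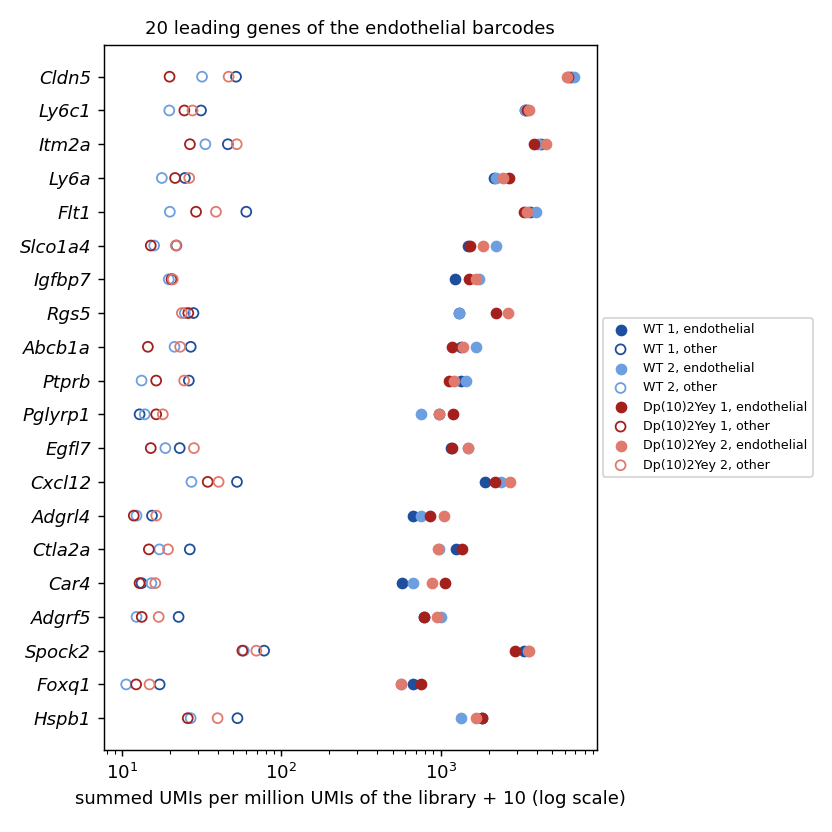
Levels of the 20 leading genes in the endothelial cells (filled points) and in the other barcodes (open points) of each library, in CPM plus 10 on a log axis. For every gene, the 4 filled points lie to the right of all 4 open points.

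The stretch upstream of the start site is shown for 3 genes of the rule, as the 250 bases before the first listed start of Cldn5 (chr16:18776597-18776846, plus strand), Flt1 (chr5:147726012-147726261, minus strand) and Slco1a4 (chr6:141856221-141856470, minus strand), from RefSeq on GRCm38.p6. Capitals mark AGGAAG or its reverse complement CTTCCT, the core that ETS transcription factors bind, a family with known endothelial members.
Cldn5: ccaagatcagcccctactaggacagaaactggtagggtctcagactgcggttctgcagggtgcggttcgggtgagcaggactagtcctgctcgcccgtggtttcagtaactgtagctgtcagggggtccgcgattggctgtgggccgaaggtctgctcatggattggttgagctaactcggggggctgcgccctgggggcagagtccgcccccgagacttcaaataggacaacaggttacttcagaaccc
Flt1: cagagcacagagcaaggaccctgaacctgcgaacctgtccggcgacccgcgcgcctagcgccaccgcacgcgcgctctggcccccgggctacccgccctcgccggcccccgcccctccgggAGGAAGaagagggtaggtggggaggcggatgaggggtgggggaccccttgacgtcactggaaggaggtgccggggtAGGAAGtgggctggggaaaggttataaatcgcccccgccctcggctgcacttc
Slco1a4: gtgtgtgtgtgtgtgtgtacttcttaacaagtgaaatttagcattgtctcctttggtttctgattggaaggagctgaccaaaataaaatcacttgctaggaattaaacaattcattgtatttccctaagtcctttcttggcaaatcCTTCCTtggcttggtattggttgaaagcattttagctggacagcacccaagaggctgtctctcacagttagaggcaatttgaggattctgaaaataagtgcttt
The window of Flt1 held 2 matches, that of Slco1a4 held 1, and that of Cldn5 held 0. Of the 20 leading genes, 17 were matched in the promoter table, and Ly6a, Ptprb and Foxq1 were not. AGGAAG on either strand occurred in 9 of the 17 upstream windows, against 29.2% of all 27025 windows of this length. AACAAT, a core bound by SOX factors, occurred in 2 of the 17, against 9.65% of all. CTTTGA, a core bound by TCF and LEF factors, occurred in 5 of the 17, against 14.1% of all. None of the 3 runs of letters contains another, and a match describes the letters of the window only.

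The share of endothelial cells was lower in both Dp(10)2Yey libraries than in both WT libraries. Among barcodes that passed the filters on genes and globin, endothelial cells were 49 of 1018 (4.81%, exact 95% binomial interval 3.58 to 6.31) in WT replicate 1 and 73 of 1682 (4.34%, 3.42 to 5.43) in WT replicate 2. They were 46 of 1350 (3.41%, 2.51 to 4.52) in Dp(10)2Yey replicate 1 and 67 of 2199 (3.05%, 2.37 to 3.85) in Dp(10)2Yey replicate 2. The means were 4.58% ± 0.335 (SD, n = 2) in WT and 3.23% ± 0.255 (SD, n = 2) in Dp(10)2Yey, a difference of -1.35 percentage points. The groups did not overlap, but the exact, two-sided permutation test gave p = 0.33 with n = 2 per group, the smallest value that this design allows. The intervals cover counting error only, and a difference in the tissue and a difference in how well cells survived dissociation cannot be told apart.

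**Figure D2:**
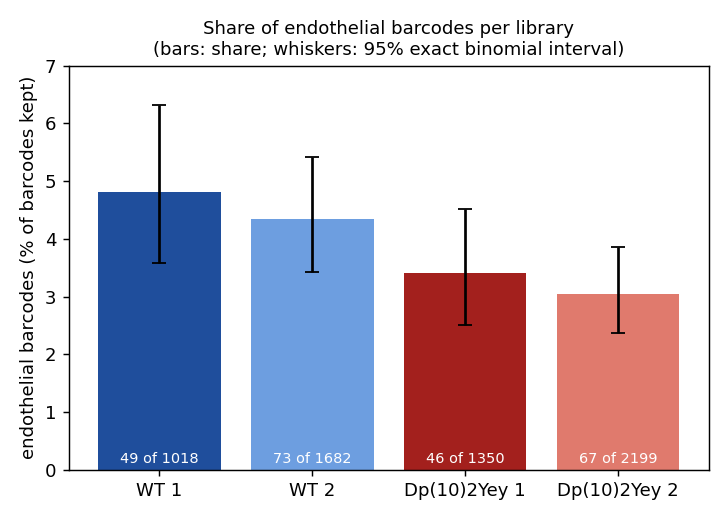
Share of endothelial cells among the barcodes kept in each library, in percent, with whiskers for the exact 95% binomial interval and the counts written in each bar. The WT shares of 4.81% and 4.34% both lie above the Dp(10)2Yey shares of 3.41% and 3.05%, while the intervals of the libraries overlap.

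Many endothelial cells also carried RNA of pericytes. A threshold of 5 UMIs summed over Rgs5, Vtn, Kcnj8, Abcc9 and Higd1b, chosen after the values were seen, was reached by 73 of the 235 endothelial cells (31.1%), called mural-marked below, while 119 had no UMI of these genes. The same threshold was reached by 2 of 2056 microglia (0.0973%), whose median depth was higher. Mural-marked cells made up 20.4% and 41.1% of the endothelial cells in WT and 26.1% and 31.3% in Dp(10)2Yey, so the groups overlapped. They held 53.8% and 74.6% of the endothelial UMIs in WT and 48.4% and 65.4% in Dp(10)2Yey. The summed levels and fold changes thus rest in large part on these cells. Pecam1, which the rule did not use, had a pooled level of 512 CPM in the mural-marked cells, against 622 CPM in the cells with no mural UMI. Rgs5, a regulator of G-protein signaling found in pericytes, had 2768 CPM in the mural-marked cells, and the matrix protein Vtn had 2118 CPM. Only 22 barcodes outside the endothelial cells had at least 5 mural UMIs with at most 2 endothelial marker UMIs, and their levels were 2475 CPM for Rgs5 and 13075 CPM for Vtn. Mural-marked cells were deeper, with a median of 5900 UMIs against 1004 in cells with no mural UMI, and none of them was called a doublet. Whether such a barcode held 1 cell, attached cells or free RNA was not tested.

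**Figure D3:**
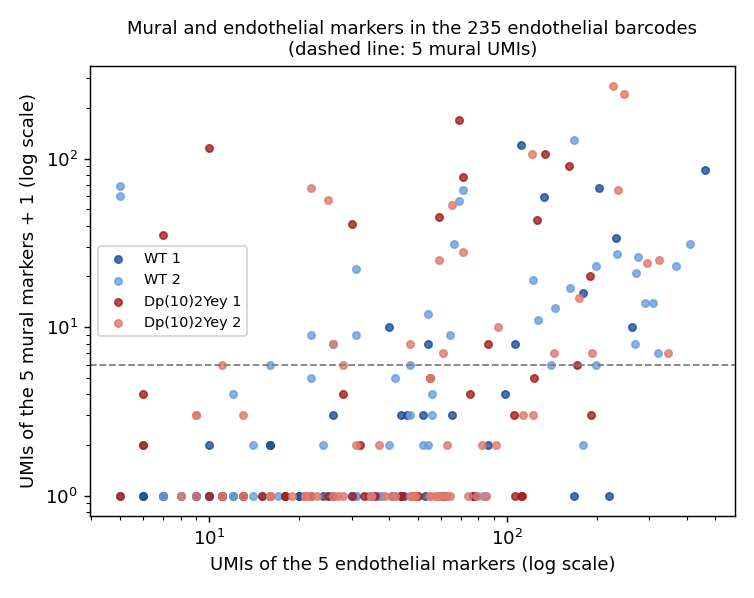
UMIs of the 5 mural markers plus 1 against UMIs of the 5 endothelial markers for each of the 235 endothelial cells, both on log axes and colored by library. The 73 cells on or above the dashed line at 5 mural UMIs come from all 4 libraries.

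The endothelial cells varied along the arterial to venous axis. Genes of both ends were taken after their detection in these cells had been seen, with Bmx, Sema3g, Efnb2, Gkn3 and Hey1 for arteries and Slc38a5 and Nr2f2 for veins. A cell was called arterial-marked or venous-marked when it held at least 2 UMIs of one set and more than of the other. This gave 32 arterial-marked and 38 venous-marked cells, and 165 that met neither condition. The latter had a median of 1537 UMIs, against 6017 and 5712.5 in the marked cells, so depth decided in part which cells could be marked. The levels that follow are pooled over libraries and have no test. Among genes not used for the marking, the alkaline phosphatase Alpl had 285 CPM in arterial-marked, 77.8 in unmarked and 45.5 in venous-marked cells. Vegfc, the netrin receptor Unc5b and Tm4sf1 were also highest in the arterial-marked cells, with 59.5, 136 and 1478 CPM against 3.80, 15.2 and 520.0 CPM in the venous-marked ones. Cxcl12 had 2795 CPM in arterial-marked and 2889 in unmarked cells and was lower, at 1180.4 CPM, in venous-marked cells. Levels were higher in venous-marked than in arterial-marked cells for von Willebrand factor (Vwf), the interleukin-1 receptor Il1r1 and the actin-binding Tmsb10. Vwf had 421 CPM in venous-marked and 132 in arterial-marked cells, and Tmsb10 had 2953 and 586 CPM. The transferrin receptor Tfrc and Car4 were lowest in arterial-marked cells, at 344 and 391 CPM. Both were highest in venous-marked cells, at 679 and 1063 CPM. The lactate carrier Slc16a1, the amino acid carrier Slc7a5 and the lipid carrier Mfsd2a were highest in the unmarked cells, at 358, 994 and 319 CPM. Among other capillary genes, Rgcc was highest in unmarked, Spock2 in arterial-marked and Lef1 in venous-marked cells, at 433, 3662 and 490 CPM. Abcb1a had 1623, 1269 and 1431 CPM in arterial-marked, unmarked and venous-marked cells. Mural RNA differed between these cells too, as 18 of the 32 arterial-marked, 23 of the 38 venous-marked and 32 of the 165 unmarked cells were mural-marked, and Rgs5 had 2974, 1583 and 1267 CPM in arterial-marked, venous-marked and unmarked cells. Of its 700 UMIs in arterial-marked cells, 257 came from 1 cell.

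**Figure D4:**
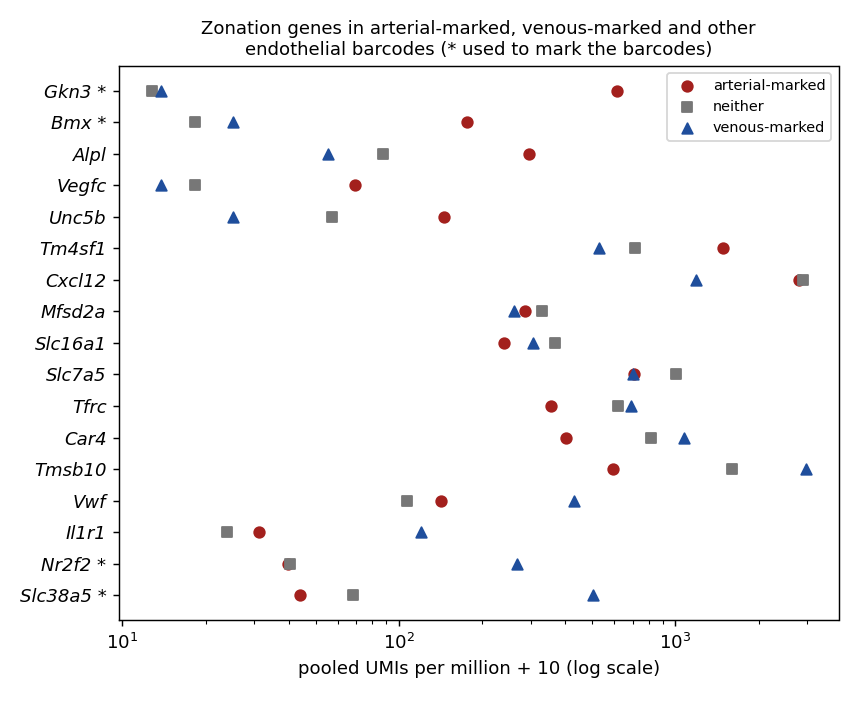
Pooled levels of zonation genes in arterial-marked, venous-marked and unmarked endothelial cells, in CPM plus 10 on a log axis, with asterisks on genes used for the marking. The genes shown were chosen after their values were seen, and points run from an arterial excess at the top to a venous excess at the bottom.

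Across libraries, arterial-marked cells numbered 7 and 11 in WT and 1 and 13 in Dp(10)2Yey, or 14.3%, 15.1%, 2.17% and 19.4% of the endothelial cells. Dp(10)2Yey replicate 1 was the lowest and replicate 2 the highest of the libraries. Venous-marked cells were 12.2% and 15.1% in WT and 17.4% and 19.4% in Dp(10)2Yey, which did not overlap, though the exact permutation test could give no p below 0.33. After thinning to 1000 UMIs, the venous genes were detected in 13.3% and 16.7% of the WT and 17.1% and 16.3% of the Dp(10)2Yey cells, and the groups overlapped. In the thinned microglia these genes were detected in 0.100%.

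Next, the duplicated genes were compared between genotypes within the endothelial cells, as a check of the genotypes in this cell type. UMIs of the endothelial cells were summed per library, and fold changes, Dp(10)2Yey over WT, were fitted with edgeR after TMM normalization. From Prmt2 through Pdxk the segment spans chr10:76207222-78464975 on GRCm38. Of its 61 protein-coding genes in the files, 31 had a UMI in the endothelial cells and 8 had enough to be tested. All 8 had a log2 fold change above 0 in the fit of all libraries, where 49.8% of all 3622 genes tested did so, with a median of 0.40 against -0.00 over all genes. With no filter on low counts, 24 of the 31 duplicated genes with UMIs were above 0, against 51.2% of all 13325 genes in that fit. For 5 of the 8, each Dp(10)2Yey value exceeded each WT value, against 17.6% of all genes tested. Pttg1ip, which encodes a securin-interacting membrane protein, had 151 and 188 CPM in WT and 275 and 363 CPM in Dp(10)2Yey, a log2 fold change of 0.88 (standard error 0.24). It was the only gene of the 8 with an unadjusted p under 0.05 in edgeR and a higher level in Dp(10)2Yey, which 1.91% of all genes had. Without the mural-marked cells its log2 fold change was 0.59 and its unadjusted p in edgeR was above 0.05. Both Dp(10)2Yey values lay above both WT values. The protease inhibitor Cstb had 75.7 and 184 CPM in WT and 214 and 224 CPM in Dp(10)2Yey, with a log2 fold change of 0.64 (standard error 0.33), and its WT values were far apart, so that its value was 0.25 without WT replicate 1 and more than 2 times the value above without WT replicate 2. The ubiquitin-like modifier Sumo3, the acyltransferase Agpat3 and the ribosome biogenesis factor Rrp1 had values of 0.40, 0.40 and 0.39, also with groups that did not overlap, and 0.20, 0.20 and 0.17 without Dp(10)2Yey replicate 1. S100b, the glycolytic enzyme Pfkl and the vitamin B6 kinase Pdxk had values of 0.50, 0.23 and 0.20 with overlapping groups, and each turned below 0 when 1 library was left out, at -0.35 for S100b without Dp(10)2Yey replicate 1, -0.16 for Pfkl without Dp(10)2Yey replicate 2 and -0.02 for Pdxk without WT replicate 2. None passed an adjusted p of 0.01 (edgeR's quasi-likelihood test with Benjamini-Hochberg adjustment).

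In the other barcodes of the same libraries the same 8 genes had a median log2 fold change of 0.68, and no interaction of genotype with cell class passed the threshold for any of them, the nearest being Pdxk with a difference of -0.32 (adjusted p = 1 in edgeR's quasi-likelihood test with Benjamini-Hochberg adjustment). Across 12001 genes, 11 (0.0917%) passed this interaction test and 379 (3.16%) had an unadjusted p under 0.05. Within the other barcodes, 2 of 13715 genes (0.0146%) passed the genotype test. The median of the tested duplicated genes in endothelial cells was 0.21 over 11 genes without Dp(10)2Yey replicate 1 and 0.63 over 10 genes without Dp(10)2Yey replicate 2, so the genes tested differed as well as the libraries. Among the duplicated genes with too few UMIs to be tested, the folate carrier Slc19a1 had 6 and 6 UMIs in WT and 14 and 11 in Dp(10)2Yey, and Col18a1, a collagen of vessel basement membranes, had 0 and 0 UMIs in WT and 0 and 4 in Dp(10)2Yey. The collagens Col6a1 and Col6a2 had 3 and 2 UMIs over all libraries, and the leukocyte integrin Itgb2 had 3. These 5 were chosen after their values were seen.

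**Figure D5:**
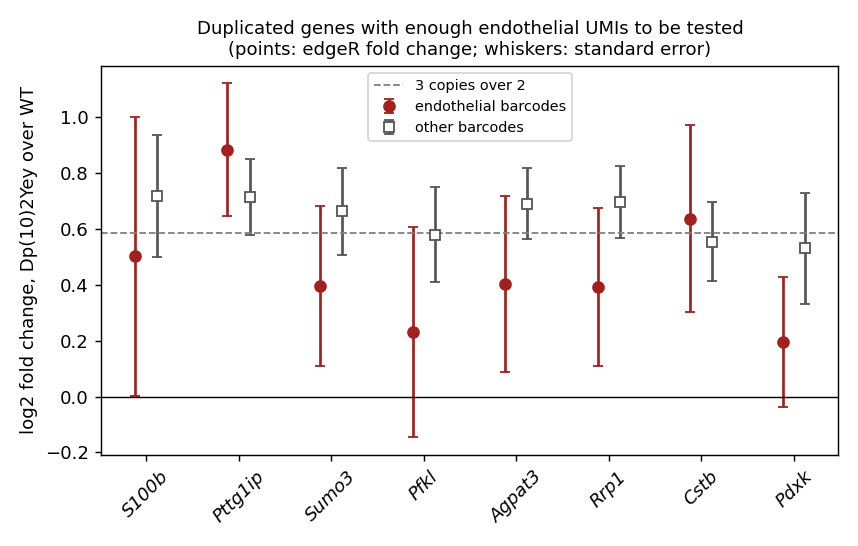
Fitted log2 fold change, Dp(10)2Yey over WT, of the 8 duplicated genes that could be tested in the endothelial cells (filled points) and of the same genes in the other barcodes (open squares), in chromosomal order, with whiskers for the standard error. The dashed line marks 3 copies over 2, and the endothelial points lie between 0.20 and 0.88.

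Over all genes, no difference between genotypes was found in the endothelial cells at the threshold of the study. Of 3622 genes tested, 0 (0%) passed 0.01 in edgeR's quasi-likelihood test with Benjamini-Hochberg adjustment, 137 (3.78%) had an unadjusted p under 0.05, and DESeq2 on the same sums found 0, with 19 at an unadjusted p under 0.05. Both Dp(10)2Yey values lay above both WT values for 636 genes (17.6%) and below them for 524 (14.5%). Cells were prepared on 2 days, with a mouse of each genotype on each day, but the labels do not tie the replicate numbers to a day. The count of 0 did not hold in every setting, being 12 with the replicate number as a block, 16 with no filter on low counts, 10 without WT replicate 1, 1 without Dp(10)2Yey replicate 1 and 10 without Dp(10)2Yey replicate 2.

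The 10 genes of smallest unadjusted p whose groups did not overlap are given as values, since none passed the threshold in the fit of all libraries without a block. With the replicate number as a block, Hbb-bt, Myl9 and Ndufa4l2 of these genes passed it. The hemoglobin gene Hbb-bt had 268 and 389 CPM in WT and 6.70 and 81.6 CPM in Dp(10)2Yey, a log2 fold change of -2.71 with a standard error of 0.47 and an adjusted p of 0.516 (edgeR's quasi-likelihood test with Benjamini-Hochberg adjustment). The rule capped the share of this gene, so nothing is read from its direction, and its value ran from -5.54 to -2.07 when each library was left out. Rgs5 had 1299 and 1298 CPM in WT and 2197 and 2619 CPM in Dp(10)2Yey, a log2 fold change of 0.87 (standard error 0.20). In Dp(10)2Yey replicate 2, 257 of its 642 UMIs came from 1 barcode. The mural-marked cells, which were chosen in part by Rgs5, held 1504 of its UMIs and the others held 69, so the value without them, -0.22, was set in part by that choice. The other pericyte and smooth muscle genes among the 10 were Atp13a5 with 1.62, the myosin light chain Myl9 with 1.29 and Ndufa4l2 with 1.32. They were as low as 1.06, 0.74 and 0.82 when 1 library was left out. Cnot6, a subunit of the complex that shortens mRNA tails, had 157 and 143 CPM in WT and 73.7 and 53.0 CPM in Dp(10)2Yey, a log2 fold change of -1.30 (standard error 0.32), and was -1.85 without the mural-marked cells. The hydrolase Oard1, which removes ADP-ribose from proteins, had 11.7 and 23.9 CPM in WT and 100.5 and 73.4 CPM in Dp(10)2Yey, with 2.08, and the transcription factor Zic1 had 40.8 and 37.6 CPM in WT and 100.5 and 114 CPM in Dp(10)2Yey, with 1.44. Zic1 was at 0.65 when only cells without UMIs of the excluded genes were kept. In both, the Dp(10)2Yey libraries lay above the WT libraries. The uncharacterized gene 2900026A02Rik had -1.12, and the last of the 10 was Pttg1ip of the duplicated segment. Without the mural-marked cells, Oard1, Zic1, 2900026A02Rik, Atp13a5, Myl9 and Ndufa4l2 had too few UMIs to be tested.

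Markers of mural cells had fold changes in the same direction. All 10 pericyte markers were tested and all 10 had a log2 fold change above 0, with a median of 0.94. For 7 of them each Dp(10)2Yey value exceeded each WT value, against 17.6% of all genes. In this fit 0 passed the threshold, while Vtn and Ndufa4l2 passed it with the replicate number as a block. Their summed level was 2849 and 2801 CPM in WT and 6002 and 4854 CPM in Dp(10)2Yey. Vtn had 979 and 997 CPM in WT and 2344 and 1432 CPM in Dp(10)2Yey, and the receptor Pdgfrb, through which endothelial cells recruit pericytes, had 105 and 41.0 CPM in WT and 174 and 135 CPM in Dp(10)2Yey. For both genes, each Dp(10)2Yey library was above each WT library. In the mural-marked cells the 5 genes used for the marking took 0.442% and 0.333% of all UMIs in WT and 1.03% and 0.638% in Dp(10)2Yey, a description with no test, as these genes chose the cells. Few barcodes carried much of it, since the 11 endothelial cells with more mural than endothelial marker UMIs, 1 and 2 in WT and 5 and 3 in Dp(10)2Yey, held 28.0% and 16.9% of the mural UMIs in WT and 56.4% and 37.4% in Dp(10)2Yey. Once all mural-marked cells were left out, a single pericyte marker, Rgs5, kept enough UMIs to be tested. Of 8 smooth muscle markers, Myl9 and Mylk were tested, with log2 fold changes of 1.29 and 1.27. Myl9 passed the threshold with the replicate number as a block and with no filter on low counts. The summed level of the list was 204 and 212 CPM in WT and 522 and 685 CPM in Dp(10)2Yey. Much of this sum in Dp(10)2Yey replicate 2 lay in single barcodes, with all 30 UMIs of Acta2, the actin of smooth muscle, 28 of 29 UMIs of Tagln and 25 of 29 UMIs of Myh11 each in 1 barcode, and Cnn1 had 0 UMIs. The part of mural RNA in the differences of other genes was not tested beyond the values without the mural-marked cells.

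Markers of other cell types were read in the endothelial cells as well. The rule capped P2ry12, Cx3cr1, Mog, Pdgfra and Gja1, which are in the microglia, oligodendrocyte, oligodendrocyte precursor, fibroblast and astrocyte lists. Low sums of these lists were thus set in part by the choice of cells. The 10 microglia markers summed to 722 and 314 CPM in WT and 134 and 416 CPM in Dp(10)2Yey, with C1qb the most abundant, beside a mean of 17620.0 CPM in the other barcodes. They were highest in WT replicate 1. The 10 oligodendrocyte markers summed to 1101 and 663 CPM in WT and 757 and 1224 CPM in Dp(10)2Yey, led by Mal with a mean of 388 CPM, and the 10 astrocyte markers summed to 1008 and 829.9 CPM in WT and 1487 and 950.4 CPM in Dp(10)2Yey, led by the glutamate transporter Slc1a2. The 5 neutrophil markers summed to 1468 and 0 CPM in WT and 4073 and 0 CPM in Dp(10)2Yey, led by S100a9, with Ngp and Camp at 0. The 5 red blood cell markers summed to 23017 and 5219 CPM in WT and 73.7 and 3818 CPM in Dp(10)2Yey, led by Hbb-bs, and in WT replicate 1 this was more than the sum of the 5 endothelial genes of the rule. As the rule capped the share of the globin genes, no genotype direction is read from them. Hba-a1 and Hba-a2 are nearly identical copies, as are Hbb-bs and Hbb-bt in part, so their UMIs cannot be assigned with certainty. The lists for fibroblasts (led by Col1a2), border macrophages (led by Pf4, with Cd163, Lyve1 and Ms4a7 at 0), T and NK cells (led by Trac, with Cd3e, Cd3d, Nkg7, Ccl5 and Cd8a at 0), oligodendrocyte precursors (led by Ptprz1, with Neu4 at 0), neurons (led by Stmn2, with Rbfox3 and Gad1 at 0), ependymal cells (led by Rarres2, with Tmem212 and Foxj1 at 0) and choroid plexus (led by Ttr, with Folr1, Clic6, Kcne2 and Aqp1 at 0) summed to at most 334 CPM in any library. The part of these cells in the genotype differences was not tested.

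The genes of barrier function were then read list by list in the same fit. In the fit of all libraries without a block, no gene of the lists below passed the threshold. The medians of 9 of the lists turned sign when 1 library was left out, namely efflux pumps, receptors for transport, arterial, venous, adhesion, MHC class I, interferon, immediate early and ribosome. Of the junction genes, 2 of the 13 tested genes had a log2 fold change above 0 and the median was -0.13. That median was the value of Cldn5, a gene of the rule, so nothing is read from it. The transporter and VEGF receptor lists below hold the rule genes Slco1a4 and Flt1. Ctnnb1, which encodes beta-catenin, had 856 and 946 CPM in WT and 1038 and 702 CPM in Dp(10)2Yey, and the scaffold protein Tjp1 had 594 and 502 CPM in WT and 649.8 and 636 CPM in Dp(10)2Yey. The log2 fold change of Cldn5 was -0.13, and as this gene chose the cells, the value is a description only. Tjp1 was at 0.21, within about 1 standard error of 0. Of the nutrient and ion transporters, 10 of the 25 tested genes had a log2 fold change above 0 and the median was -0.05. The most abundant after Slco1a4 were the taurine carrier Slc6a6 with 2004 and 1776 CPM in WT and 1359.8 and 1619 CPM in Dp(10)2Yey and the thyroid hormone carrier Slco1c1 with 1433 and 1493 CPM in WT and 1306 and 1485 CPM in Dp(10)2Yey. The glucose transporter Slc2a1 had 1148 and 1134 CPM in WT and 1132 and 1236 CPM in Dp(10)2Yey, a log2 fold change of 0.03 (standard error 0.20). Of the efflux pumps, 1 of the 4 tested genes had a log2 fold change above 0 and the median was -0.16. Abcb1a had 1328 and 1643 CPM in WT and 1159 and 1362 CPM in Dp(10)2Yey, Abcg2 had 623 and 819.7 CPM in WT and 623 and 861 CPM in Dp(10)2Yey and Abcc4 had a mean of 125 CPM, and the groups of these 3 overlapped. Abca1, the other tested pump, named after its value was seen, had 64.1 and 71.7 CPM in WT and 20.1 and 40.8 CPM in Dp(10)2Yey, which did not overlap, with a log2 fold change of -1.08 (standard error 0.47). The close copy of Abcb1a, Abcb1b, had 1 UMI in all.

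Among receptors for transport and caveolae, 3 of the 12 tested genes had a log2 fold change above 0 and the median was -0.16. The insulin-like growth factor receptor Igf1r had 1019 and 1045 CPM in WT and 1166 and 1101 CPM in Dp(10)2Yey, and Tfrc, the route of iron, had 647 and 611 CPM in WT and 516 and 461 CPM in Dp(10)2Yey. The neonatal Fc receptor gene Fcgrt had a mean of 467 CPM, while Plvap, which forms the diaphragms of leaky vessels, had 1 UMI in 1 cell. For Tfrc each Dp(10)2Yey value was below each WT value, with a log2 fold change of -0.39 (standard error 0.22). In the Wnt and beta-catenin list, 4 of the 17 tested genes had a log2 fold change above 0 and the median was -0.15. Foxq1 and Lef1 had means of 627 and 376 CPM, against 3.75 and 3.56 CPM in the other barcodes. Among receptors for VEGF, angiopoietin and TGF-beta, 6 of the 15 tested genes had a log2 fold change above 0 and the median was -0.18. After Flt1, the most abundant were Id3 and Id1, targets of BMP signaling, with means of 1495 and 1474 CPM. In the basement membrane list, 10 of the 14 tested genes had a log2 fold change above 0 and the median was 0.14. This median was 0.017 without the mural-marked cells and 0.016 when only cells without UMIs of the excluded genes were kept. Sparc, its relative Sparcl1 and the laminin and collagen receptor subunit Itga1 led the list, with log2 fold changes of 0.03, 0.14 and -0.10.

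For the arterial list, led by Mgp, Sox17 and Gkn3, 4 of the 11 tested genes had a log2 fold change above 0 and the median was -0.18. Mgp had 128 and 549.9 CPM in WT and 489 and 163 CPM in Dp(10)2Yey, and 73.9% of its UMIs in WT replicate 2 came from 1 cell. Gkn3 had 274 and 219 CPM in WT and 6.70 and 135 CPM in Dp(10)2Yey, a log2 fold change of -1.57 (standard error 0.53). It passed the threshold with the replicate number as a block, with no filter on low counts and without Dp(10)2Yey replicate 2. The WT values were both above the Dp(10)2Yey values, and its UMIs were in 20 cells, with a single UMI in Dp(10)2Yey replicate 1, the library with 1 arterial-marked cell. For the capillary list, led by Spock2, Cxcl12 and Slc7a5, 3 of the 9 tested genes had a log2 fold change above 0 and the median was -0.07. Within it Car4, named after its value was seen, had 559 and 663 CPM in WT and 1058 and 873 CPM in Dp(10)2Yey, a log2 fold change of 0.63 (standard error 0.23), and the groups did not overlap. For the venous list, led by Tmsb10, Slc38a5 and Vwf, 7 of the 8 tested genes had a log2 fold change above 0 and the median was 0.33. Slc38a5, a glutamine carrier, had -0.01 and Vwf had 0.39. The sign of the venous median depended on the libraries, from -0.41 to 0.77 when each was left out, and that of the arterial median from -0.68 to 0.17. Of 9 tip cell genes, 8 had UMIs and none had enough to be tested, with a summed level of 64.1 and 85.4 CPM in WT and 141 and 110.1 CPM in Dp(10)2Yey, led by Adm, Mcam and Angpt2 and with Esm1 at 0.

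For adhesion and activation, led by Nfkbia, Cd34 and Podxl, 5 of the 7 tested genes had a log2 fold change above 0 and the median was 0.12. The selectin Sele and the chemokine receptor Ackr1 had 0 UMIs. For MHC class I, led by B2m, H2-D1 and H2-K1, 5 of the 8 tested genes had a log2 fold change above 0 and the median was 0.08. For interferon response, 10 of the 17 tested genes had a log2 fold change above 0 and the median was 0.04, with Ly6a, Ly6e and Ifitm3 the most abundant. Ly6a had 2144 and 2223 CPM in WT and 2679 and 2455 CPM in Dp(10)2Yey, and the groups did not overlap. Genes of the immediate early response and of dissociation were abundant, with a summed level of 19697 and 13778 CPM in WT and 15762 and 13819 CPM in Dp(10)2Yey, highest in WT replicate 1. Of this list, 5 of the 26 tested genes had a log2 fold change above 0 and the median was -0.24. It was led by Klf2, a factor induced by blood flow, with 2511 and 1783 CPM in WT and 2405 and 1387 CPM in Dp(10)2Yey, and by Fos and Jun. Klf2 was higher in replicate 1 of each genotype. Left out in turn, the libraries moved the median of this list from -0.45 to 0.09, and without the mural-marked cells it was 0.36. The next 4 lists were taken by symbol. Of the genes with symbols of NADH dehydrogenase, led by Ndufa7 and including the pericyte marker Ndufa4l2, 22 of the 36 tested genes had a log2 fold change above 0 and the median was 0.05. Of those for cytochrome c oxidase and ATP synthase, led by Cox6c, 21 of the 26 tested genes had a log2 fold change above 0 and the median was 0.14. This median was 0.01 without Dp(10)2Yey replicate 1 and 0.25 without Dp(10)2Yey replicate 2. Of the mitochondrial genome, led by mt-Atp6, 3 of the 13 tested genes had a log2 fold change above 0 and the median was -0.13. It ran from -0.37 to -0.0042 when each library was left out. Of the cytosolic ribosome, led by Rps29, 36 of the 76 tested genes had a log2 fold change above 0 and the median was -0.01. Over all 3622 genes, 1803 had a log2 fold change above 0.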

How the data were processed

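UMI counts of 31055 genes were deposited by the authors as whole counts and used as deposited. The submitters' processing notes name Cell Ranger 3.0.2 and mm10. Endothelial cells were taken by the rule given above. The members and lists were chosen with earlier results of these data known, and the mural, arterial and venous marks after values were seen. Counts were summed per library and tested with edgeR 4.0.16 (TMM, filterByExpr, quasi-likelihood fit, no block) in R 4.3.3, with Benjamini-Hochberg adjustment and a threshold of 0.01. The test was also run on simulated data, and no result given here rests on that run. DESeq2 1.42.0, RLE size factors, no filter, a replicate block, stricter cells and each library left out were the alternatives. Doublets were called per library by Scrublet in scanpy 1.11.5 (60 among 6249 barcodes) and kept. Microglia had at least 5 UMIs of P2ry12 and Cx3cr1 and at most 2 of the endothelial markers. Single genes are named where they are in the rule or the tested segment, lead the cells or a list, or have the smallest p with groups that do not overlap. Others were chosen after their values were seen. Libraries of a genotype differed by more than sampling (chi-square per degree of freedom 2.13 and 2.27).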

Additional observations from a re-analysis of the deposited data

Results flagged for a closer look

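The difference between genotypes was compared between the endothelial cells and the other barcodes of the same libraries by an interaction term, with the library as a block. Of 12001 genes tested, 11 (0.0917%) passed 0.01 in edgeR's quasi-likelihood test with Benjamini-Hochberg adjustment and 379 an unadjusted p under 0.05. The sums do not carry the spread between barcodes, so the calls whose UMIs came mostly from a few barcodes are not reliable. The rule capped the share of the 4 globin genes in both classes, so nothing is read from their values. The log2 difference, endothelial minus other, was -4.54 for Hbb-bs, -4.31 for Hba-a1, -4.49 for Hba-a2 and -4.71 for Hbb-bt, and 44.5% of the endothelial UMIs of Hbb-bs came from 1 barcode. It was -10.28 for S100a9 and -8.43 for S100a8, whose endothelial UMIs came from 2 barcodes. Their log2 fold changes were 1.69 and 1.24 in the endothelial cells and 12.44 and 9.63 in the other barcodes. In the other barcodes S100a9 had 0 and 0 CPM in WT and 124 and 121 CPM in Dp(10)2Yey. The log2 difference was 4.74 for Cxcl2, with 94.5% of the endothelial UMIs in 1 barcode. It was 4.37 for Ttr, with UMIs in 8 endothelial cells, and 2.45 for Mgp, with UMIs in 29. Mgp had a log2 fold change of -0.21 in the endothelial cells and -2.60 in the other barcodes. For Ttr and Mgp, 1 barcode held 50% and 40.2% of the endothelial UMIs. Mbp, a myelin gene found in 48 of the endothelial cells, had 1.21. Fn1, which encodes fibronectin, had 1.44 and was found in 157 endothelial cells. Its level there was 1142 and 1018 CPM in WT and 831 and 624 CPM in Dp(10)2Yey, a log2 fold change of -0.59. In the other barcodes Fn1 was low, with 15.9 and 42.8 CPM in WT and 4.73 and 8.61 CPM in Dp(10)2Yey. The log2 fold change in those barcodes was -2.16. At least 20 endothelial UMIs in every library were held by 2 of the 11 genes, Mgp and Fn1.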

How the results depend on the processing

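The lower share of endothelial cells in Dp(10)2Yey kept its direction in every setting tried, from -1.59 to -0.859 percentage points. The count of genes past the threshold was 0 with RLE size factors, DESeq2, a threshold of 0.05, thinned sums and each stricter choice of cells. It was also 0 without the 2 S100a8 and S100a9 cells and without the mural-marked cells (1376 genes tested), both added after the data were seen. It was 16 with no filter on low counts, among 13325 genes tested, and from 0 to 10 when each library was left out, where a lone library is assumed to vary like the others. The replicate numbers do not tie libraries to a day of preparation, and libraries of the same number deviated together with a correlation of 0.14 over 3622 genes. With the replicate number as a block the count was 12, 7 of them higher in Dp(10)2Yey, namely Il1b, Myl9, S100a8, S100a9, Gkn3, Hbb-bt, Hbb-bs, Ndufa4l2, Hba-a1, Hba-a2, Vtn and Mbp. The median of the duplicated genes was 0.59 with no filter, 0.70 without the mural-marked cells (4 genes tested) and 0.21 to 0.63 when each library was left out. The genes with a turned direction had ranges over the libraries left out of -0.35 to 1.19 (S100b), -0.16 to 0.44 (Pfkl) and -0.0189 to 0.40 (Pdxk), and Rgs5 was -0.22 without the mural-marked cells, which were chosen in part by its own UMIs. The causes were not tested. From 9 to 15 genes passed the interaction test, and from 7 to 9 list medians were above 0 (7 of 18 in the fit of all libraries, and 9 of 19 at most). Only 7 of 20 medians, mural lists included, kept their sign in all 16 settings. Of 61 duplicated genes, 8 could be tested and 31 had UMIs in endothelial cells.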
